A study of Homo sapiens with 8 samples.

Results

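Clone 3 is a line expanded from 1 sorted cell of the human leukemia line KCL-22 and is resistant to imatinib and nilotinib, and its RNA was set against that of the imatinib-resistant population, the kind of culture it was isolated from. The comparison covered the genes with an FPKM (fragments scaled to the length of the transcript and to the mapped fragments of the library) of at least 5 in the higher library of the pair. That left 9444 of the 31402 entries of the deposited table, and 9047 of the 9444 matched a protein-coding gene. Just inside the floor lay SPATA2L, with 5.01 in Clone 3 and 4.70 in the imatinib population, and SCAI, with 2.58 in Clone 3 and 5.01 in the imatinib population. Just outside it lay CADM4 and CHPF, with 4.999 and 4.997 in Clone 3 and 3.30 and 2.13 in the imatinib population.

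KCL-22 was derived from chronic myeloid leukemia in blast crisis and carries BCR-ABL, the fusion of the BCR gene with the ABL1 tyrosine kinase gene. Imatinib and nilotinib bind the catalytic site of ABL, whereas GNF-2 binds an allosteric pocket outside it. BCR-ABL signals through STAT5, RAS with ERK, and PI3K, and inhibitor-resistant cells can carry changes in the kinase or in other pathways. A population selected by drug can mix many lineages, whereas a clone descends from a single cell.

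The cells had been marked with ClonTracer, a library of heritable DNA barcodes, and 8 libraries were sequenced. Clone 3 was sorted by FACS from cells selected in 2.5 µM imatinib, had not met an allosteric inhibitor, and has 1 library. Clones 1, 2 and 4 were sorted from cells selected in 2.5 µM GNF-2 and had not met a catalytic inhibitor; Clones 1 and 2 are resistant to GNF-2, and Clone 4 to GNF-2, imatinib and nilotinib. The imatinib population was kept in 2.5 µM imatinib for 27 days, the nilotinib population in 0.3 µM nilotinib for 27 days, the GNF-2 population for 21 days in GNF-2 at 2.5 µM and the vehicle population for 7 days in 0.1% DMSO. The labels do not say whether drug was present while the clone was expanded, nor that the sequenced population was the culture from which Clone 3 was sorted. With 1 library a side the differences have no replicate check, no p-value is given, and being a clone cannot be told apart from the other ways in which the 2 cultures differed.

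Depth was not given. The steps between low values of 612 intronless genes put it at roughly 25900000 fragments in Clone 3 and 35200000 in the imatinib population, within 16900000 to 39800000 over the 8 libraries. A transcript of 2 kilobases at the floor then rests on about 259 fragments in Clone 3 and 352 in the imatinib population. FPKM sums were 556132 in Clone 3 and 514741 in the imatinib population, and the 10 most abundant genes took 10.4% of the sum in Clone 3 and 8.34% in the imatinib population. Values of exactly 0 occurred in genes that are abundant elsewhere and may be failed estimates: 51 of the 9444 genes were listed at 0 in Clone 3 and 29 in the imatinib population. These are named as listed at 0, with no fold.

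Clone 3 was at least 2-fold higher than the imatinib population at 370 genes (3.92% of the 9444) and at least 2-fold lower at 678 (7.18%), together 11.1%. The call was made on log2(FPKM + 1), which understates differences of low genes. Differences of at least 4-fold were found at 63 genes on the higher and 160 on the lower side. The median log2 difference (Clone 3 minus imatinib population) was -0.09, with quartiles of -0.46 and 0.27, and 6565 genes (69.5%) lay within 1.5-fold. Of the calls 35.3% were on the higher side; the share was 46.1% after rescaling by median ratios (475 higher and 556 lower) and 48.1% after quantile normalization (472 higher and 509 lower), so the excess of lower genes depends on the scaling. Against the other populations Clone 3 was higher at 220 (2.3%) and lower at 678 (7.09%) genes for nilotinib, at 217 (2.25%) and 721 (7.47%) for GNF-2, and at 447 (4.73%) and 814 (8.6%) for vehicle. The imatinib population itself was at least 2-fold higher than vehicle at 87 genes (0.938%) and lower at 201 (2.17%). Over the 9232 genes above 0 in all 8 libraries, Clone 3 and the imatinib population differed at 335 genes on the higher (3.63%) and 599 on the lower side (6.49%).

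**Figure D1:**
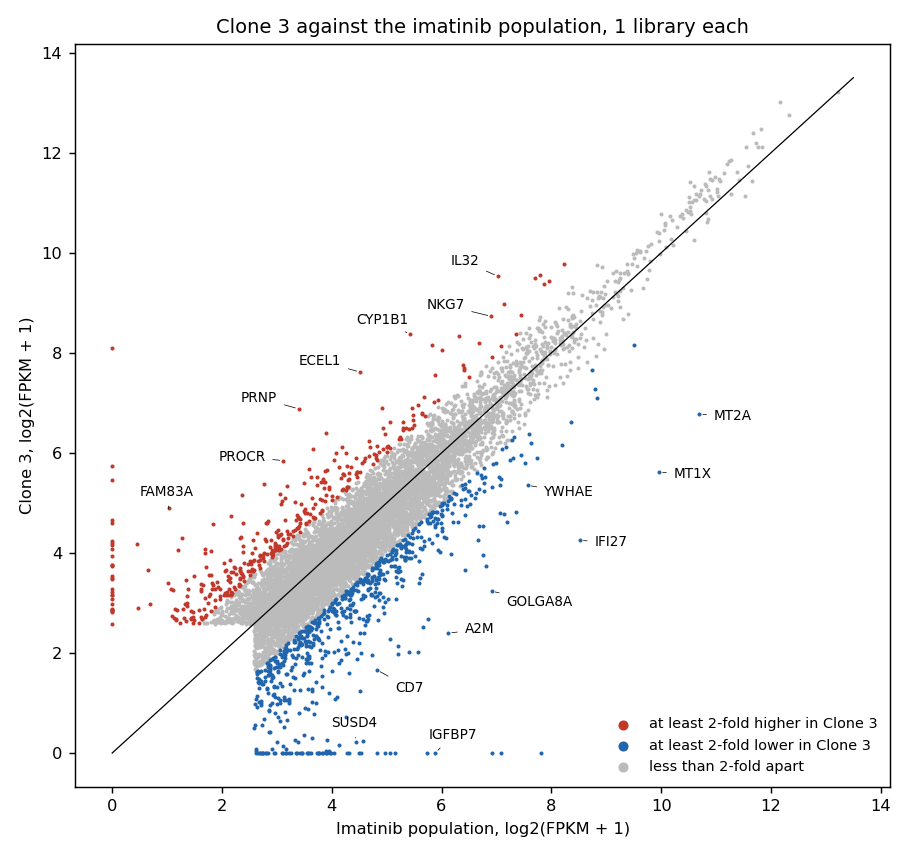
Level of each gene in Clone 3 (vertical axis) against the imatinib population (horizontal axis), both as log2(FPKM + 1), with the line of equality. Red points are at least 2-fold higher and blue points at least 2-fold lower in Clone 3, and points at 0 on either axis are listed at 0 in that library; MT2A and MT1X stand far below the line, and CYP1B1, ECEL1 and PRNP far above it.

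The values of ABL1 and BCR, the genes of the fusion, were read first. ABL1, at 133589267 to 133763062 of chromosome 9 (GRCh37), reached 65.9 FPKM in Clone 3 and 110.5 in the imatinib population, a log2 difference of -0.74. BCR (chromosome 22, 23522551 to 23660224) had 58.8 in Clone 3 and 102 in the imatinib population, a difference of -0.79. Neither was 2-fold apart, both were abundant, and Clone 3 had the lowest BCR value of the 8 libraries, while its ABL1 value was close to that of Clone 1 (65.3). Values summed per gene mix fusion transcripts with those of the unrearranged alleles, so they show neither the fusion nor the identity of the cells.

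Markers of mature blood lineages were mostly near 0 on both sides. Of 22 erythroid markers, 11 were listed at 0 in both libraries, among them HBA1, HBB and AHSP, and the summed FPKM of the list was 131 in Clone 3 and 120 in the imatinib population, nearly all of it GYPC. Of 22 T and NK markers, CD3G, CD2 and IL7R were at 0 in both; the sum was 534 in Clone 3 and 244 in the imatinib population, most of it NKG7, with 423 in Clone 3 and 119 in the imatinib population. Of the 5 such genes above the floor NKG7 and CD4 were higher, CD7 and CD3D lower (CD3D 0.90 in Clone 3, 5.23 in the imatinib population), and the median log2 difference was -0.36. Neutrophil and granule markers summed to 652 in Clone 3 and 588 in the imatinib population, and MPO, the granule peroxidase, was at 0.08 in Clone 3 and 0.16 in the imatinib population. Megakaryocyte markers summed to 197 in Clone 3 and 279 in the imatinib population. Of 22 mast cell, basophil and eosinophil markers 7 were at 0 in both, KIT and CPA3 among them, and the sum was 331 in Clone 3 and 667 in the imatinib population. The largest part of that sum was HDC, the histamine-forming decarboxylase, with 136 in Clone 3 and 455 in the imatinib population. Of the 5 such genes above the floor 2 had higher and 3 lower values, with a median log2 difference of -0.88. HDC and PRG2 were called lower. PRG2 was listed at 0 in every clone and in the nilotinib and GNF-2 populations, with 34.5 in the imatinib population. Of 16 fibroblast, epithelial and endothelial markers KRT8 and KRT18 exceeded the floor, with 25.5 and 56.5 in Clone 3 and 9.38 and 29.9 in the imatinib population, while DCN was at 0 in both and EPCAM at 0.02 in Clone 3 and 0.12 in the imatinib population. Monocyte markers with a value in both summed to 109 in Clone 3 and 93.3 in the imatinib population. Of these CD68 had 37.0 in Clone 3 and 36.6 in the imatinib population and FCGR1A 24.6 in Clone 3 and 27.9 in the imatinib population, CD14 is described with the largest differences, the myeloid transcription factor SPI1 was listed at 0 in Clone 3 (and in Clone 4) with 7.497 in the imatinib population, and ITGAM was at 0.14 in Clone 3 and 0.63 in the imatinib population. B cell markers summed to 84.4 in Clone 3 and 63.7 in the imatinib population, and CD79A had 47.1 in Clone 3 and 17.4 in the imatinib population. The surrogate light chain gene IGLL1 was lower, with 3.02 in Clone 3 and 22.3 in the imatinib population (-2.53), while MS4A1 was at 0 in both. Both libraries thus held abundant single genes of several lineages beside other defining genes of the same lineages at or near 0. In bulk RNA fewer cells of a kind and less RNA per cell cannot be told apart, and the part of other cells in the differences below was not tested.

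Regulatory sequence is shown for the gene groups with the largest shifts of the list median, in the RefSeq promoters (GRCh38.p14, 250 bases before to 50 after the start). Amino acid shortage and endoplasmic reticulum stress act through the transcription factor ATF4, which binds C/EBP-ATF response elements. The letters TGATGNAA, searched on both strands, were found in 1270 of 35116 promoters (3.62%) and in 5 of the 17 ATF4 list genes that had a promoter in the table. A list gene was counted if any of its promoters held a match, so the share of promoters and that of genes are in unlike units. ASNS lies at chr7:97872359-97872658 on the minus strand, CHAC1 at chr15:40953221-40953520 on the plus strand and SLC7A1 at chr13:29595639-29595938 on the minus strand. Capitals mark the match; in CHAC1 it is on the opposite strand.
ASNS: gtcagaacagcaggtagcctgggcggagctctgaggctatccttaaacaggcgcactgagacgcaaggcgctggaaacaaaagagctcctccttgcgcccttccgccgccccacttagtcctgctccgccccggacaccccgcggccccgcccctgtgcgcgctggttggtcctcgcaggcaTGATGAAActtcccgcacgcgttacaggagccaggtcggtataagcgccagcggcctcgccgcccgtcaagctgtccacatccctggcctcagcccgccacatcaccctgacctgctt
CHAC1: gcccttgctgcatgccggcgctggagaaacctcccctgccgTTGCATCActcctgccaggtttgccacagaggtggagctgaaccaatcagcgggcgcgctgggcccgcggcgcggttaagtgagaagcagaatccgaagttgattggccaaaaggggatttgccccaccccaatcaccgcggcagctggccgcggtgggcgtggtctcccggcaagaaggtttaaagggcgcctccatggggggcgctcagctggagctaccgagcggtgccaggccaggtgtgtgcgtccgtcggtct
SLC7A1: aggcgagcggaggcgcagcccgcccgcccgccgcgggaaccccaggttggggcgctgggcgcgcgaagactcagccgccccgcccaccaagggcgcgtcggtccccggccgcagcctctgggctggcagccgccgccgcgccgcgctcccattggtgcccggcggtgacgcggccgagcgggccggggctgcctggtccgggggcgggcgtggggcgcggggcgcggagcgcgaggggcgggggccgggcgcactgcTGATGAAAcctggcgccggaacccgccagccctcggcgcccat

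Metallothioneins are small cysteine-rich proteins that bind zinc and copper, and zinc induces them through the factor MTF1 at metal response elements. The core TGCACNC or TGCGCNC, both strands, was found in 10377 of 35116 promoters (29.6%), and in 5 of 5 list genes with a promoter, counted in the same way. MT2A lies at chr16:56608334-56608633 and held 8 matches, and MT1X at chr16:56682220-56682519 held 4, both on the plus strand. Capitals mark the matches on either strand.
MT2A: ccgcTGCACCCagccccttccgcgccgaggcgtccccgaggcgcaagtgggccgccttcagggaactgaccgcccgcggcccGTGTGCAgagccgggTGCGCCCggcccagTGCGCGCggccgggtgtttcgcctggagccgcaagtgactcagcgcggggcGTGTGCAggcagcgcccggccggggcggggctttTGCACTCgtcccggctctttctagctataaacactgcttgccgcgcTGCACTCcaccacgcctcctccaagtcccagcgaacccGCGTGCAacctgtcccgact
MT1X: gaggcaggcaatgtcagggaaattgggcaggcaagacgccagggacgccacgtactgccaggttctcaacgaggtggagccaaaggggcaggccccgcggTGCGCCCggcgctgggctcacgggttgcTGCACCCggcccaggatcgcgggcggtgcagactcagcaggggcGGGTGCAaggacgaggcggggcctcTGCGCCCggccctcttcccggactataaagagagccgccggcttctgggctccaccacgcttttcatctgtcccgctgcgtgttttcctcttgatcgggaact
A match describes these letters only and is not evidence of binding.

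Of 34 gene lists with at least 5 genes above the floor, 9 had a median at least 0.5 away from that of all genes. These were the ATF4, MYC, endoplasmic reticulum, heat shock, NRF2, metallothionein, arginine and polyamine, ribosomal protein, and mast cell lists. With no floor 7 of the 9 were no longer shifted by that much. Counts of called genes here and below stand beside 3.92% of all genes called higher and 7.18% called lower. A higher value in Clone 3 was found at 43.7% of all genes. ATF4 and amino acid response genes were the list furthest from the other genes. Of its 22 genes 21 passed the floor; 12 were at least 2-fold higher in Clone 3 and none lower, 20 of 21 had a higher value, and the median log2 difference was 1.25, against -0.09 over all 9444 genes. The cystine transporter SLC7A11 had an FPKM of 16.0 in Clone 3 and 2.23 in the imatinib population (log2 difference 2.39). PSAT1, an enzyme of serine synthesis, had 267 in Clone 3 and 63.0 in the imatinib population (2.06), and PHGDH, the first enzyme of that pathway, had 216 in Clone 3 and 82.9 in the imatinib population (1.37). The increase covered uptake of amino acids as well as their synthesis. The arginine carrier SLC7A1 had 57.2 in Clone 3 and 15.5 in the imatinib population (1.81), and SLC3A2, the partner chain of several carriers, had 201 in Clone 3 and 83.8 in the imatinib population (1.25). ASNS, which makes asparagine, had 97.5 in Clone 3 and 38.5 in the imatinib population (1.32). The glutathione-degrading CHAC1 had 33.1 in Clone 3 and 7.91 in the imatinib population (1.94). Of the regulators in the list some were called and some were not. TRIB3, a pseudokinase, had 63.3 in Clone 3 and 18.1 in the imatinib population (1.75), SESN2, an inhibitor of mTORC1, had 10.9 in Clone 3 and 2.38 in the imatinib population (1.81), and CEBPB had 24.6 in Clone 3 and 9.75 in the imatinib population (1.25). The transcription factors ATF4 (0.31), ATF3 (-0.03) and DDIT3 (0.75) were not 2-fold apart. The remaining called genes were PSPH (1.51) and STC2 (1.25).

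The other libraries show where the imatinib population stood. Measured against it, the list's median was 1.26 in Clone 1, 0.03 in Clone 2, and 0.91 in Clone 4, and 0.76 for nilotinib, 1.04 for GNF-2 and 0.49 for vehicle, values that share the imatinib library. CHAC1 was at 49.9 in Clone 1, 8.08 in Clone 2 and 54.0 in Clone 4, and the populations selected by nilotinib and GNF-2 had 36.0 and 33.1, with 5.93 in vehicle. For CHAC1 Clone 3 was level with the GNF-2 and nilotinib populations, and the imatinib population with Clone 2 and vehicle at the low end. Set against their own origin, the GNF-2 population, the list's medians were 0.23 in Clone 1, -1.20 in Clone 2 and 0.01 in Clone 4. With the nilotinib population in place of the imatinib population the median for Clone 3 was 0.36, against -0.09 over all genes. By the rule used here the list was not shifted in that comparison.

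MT1X had the largest decrease among protein-coding genes above 0 in all 8 libraries, and MT2A was lower as well. MT2A (chromosome 16, 56642477 to 56643409, GRCh37) had 108 in Clone 3, 43.1 in Clone 1, 179 in Clone 2 and 59.7 in Clone 4, against 1657 in the imatinib population and, under nilotinib, GNF-2 and vehicle, 748, 917 and 799. MT1X (chromosome 16, 56716381 to 56718108) had 47.9 in Clone 3, 21.5 in Clone 1, 95.9 in Clone 2 and 24.8 in Clone 4, against 996 in the imatinib population and 470 to 576 in the other 3 populations. The log2 differences of the pair were -3.92 and -4.35, and for both genes the 4 clones lay below the 4 populations with no overlap. The share of all genes with such an order was not counted. SLC30A1, the zinc exporter of the cell surface, had 18.7 in Clone 3 and 66.7 in the imatinib population (-1.78), but the GNF-2 population was at 17.0, so kinds of library overlapped for it. These 3 genes were the called members of 6 above the floor. The other 3, SLC39A1, SLC39A4 and SLC39A10, had higher values in Clone 3 and were not 2-fold apart. The median of the 6, -0.89, lay between the lower and the higher genes and describes neither. Metallothionein genes are close copies, and the sources used here do not say how reads were shared among them.

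**Figure D2:**
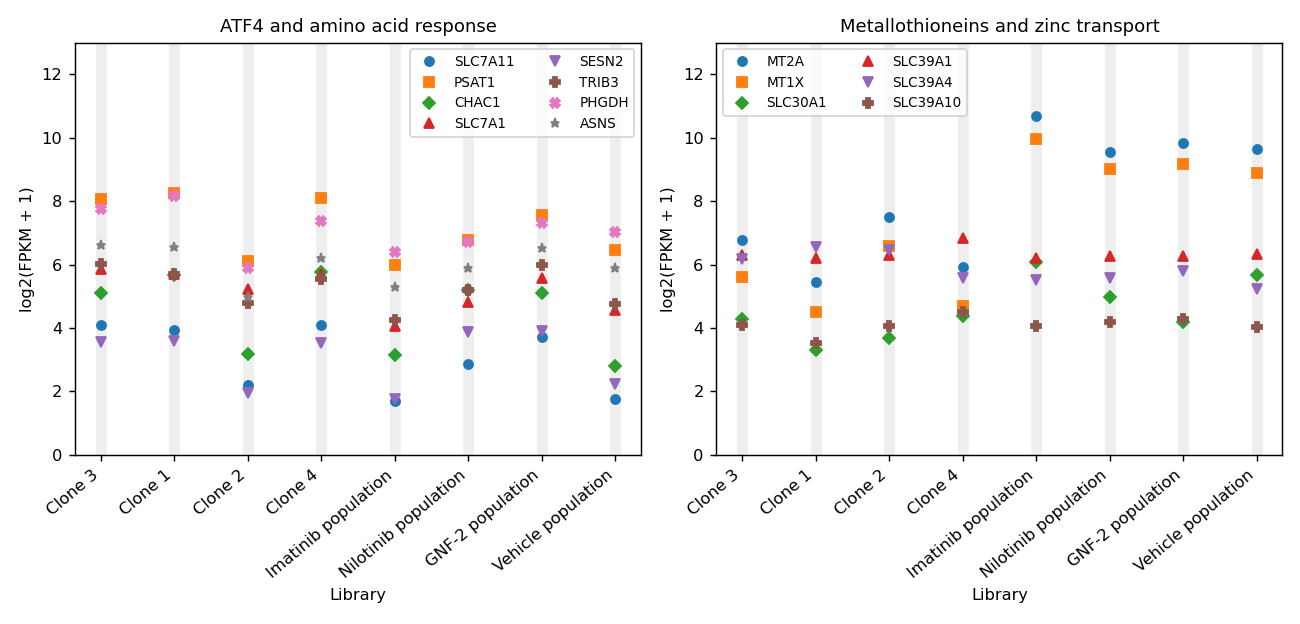
Level of 8 ATF4 and amino acid genes (left) and of the 6 metallothionein and zinc genes above the floor (right) in the 8 libraries, as log2(FPKM + 1), 1 point for each gene and library. In the left panel Clone 2 and the imatinib population lie low and Clone 3 lies high; in the right panel MT2A and MT1X lie lower in all 4 clones than in all 4 populations.

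Genes of growth and protein synthesis were shifted upward by smaller amounts. Of 22 MYC target and ribosome biogenesis genes, 21 had a higher value in Clone 3 (median 0.61) and 3 were at least 2-fold higher: TFRC, the transferrin receptor (68.2 in Clone 3, 24.9 in the imatinib population), and the rRNA processing factors RRP12 (8.64 in Clone 3, 3.37 in the imatinib population) and RRP9 (21.6 in Clone 3, 9.33 in the imatinib population). All 21 cytosolic ribosomal protein genes had a higher value, with a median of 0.45, and none was 2-fold apart; their summed FPKM was 47855 in Clone 3 and 34712 in the imatinib population. After quantile normalization the median of these ribosomal protein genes was 0.14. Measured against the imatinib population, the MYC list's median was 0.65 in Clone 1, 0.55 in Clone 2, 0.67 in Clone 4 and 0.62 in the GNF-2 population. It was 0.06 in the nilotinib and -0.16 in the vehicle population, and all these values share the imatinib library. The shift of the MYC list was thus not particular to Clone 3. Of 15 arginine and polyamine genes 2 were called, SLC7A1 and SRM, which makes spermidine (105 in Clone 3, 51.0 in the imatinib population), and the median was 0.46.

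Chaperones were also among the shifted lists. In the endoplasmic reticulum list 16 of 18 genes were higher (median 0.46) and 3 at least 2-fold: SDF2L1 (49.5 in Clone 3, 14.1 in the imatinib population), CRELD2 (19.5 in Clone 3, 7.16 in the imatinib population) and HYOU1 (63.5 in Clone 3, 28.0 in the imatinib population). Against the imatinib population this list's median was 0.36 in Clone 1, 0.59 in Clone 2, 0.56 in Clone 4 and 0.41 in the GNF-2 population. It was 0.18 in the nilotinib and -0.06 in the vehicle population, so the shift was not particular to Clone 3. In the cytosolic heat shock list, which also holds chaperones of other compartments, the median was 0.47 over 15 genes, the value of HSPA1A. Of the 15 genes 10 had a higher and 5 a lower value in Clone 3. The constitutive chaperone HSPA8 had 660.4 in Clone 3 and 233 in the imatinib population (a log2 difference of 1.498) and HSPE1, of mitochondria, had 282 in Clone 3 and 134 in the imatinib population (1.07). The inducible HSPA1B went the other way, with 38.3 in Clone 3 and 85.5 in the imatinib population (-1.14). It is nearly identical to HSPA1A, so reads may be split. DNAJB1 (-0.68), BAG3 (-0.57), DNAJB4 (-0.53) and HSPB1 (-0.05) were lower too, by less than 2-fold. Of 14 NRF2 and antioxidant genes 2 were called, SLC7A11, already counted above, and the quinone reductase NQO1, with 12.8 in Clone 3 and 4.795 in the imatinib population (1.25). NQO1 stood far higher in Clone 4, at 54.9, and between 4.18 and 5.998 in the other 5 libraries.

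Mitosis genes lay below the imatinib population throughout. All 22 had a lower value in Clone 3 (median -0.53), beside 5315 of all 9444 genes, and 3 were at least 2-fold lower: the checkpoint kinases TTK (19.0 in Clone 3, 45.8 in the imatinib population) and BUB1 (log2 difference -1.09), and the kinetochore motor CENPE (6.03 in Clone 3, 15.4 in the imatinib population). TTK was at 14.96 in Clone 1, 21.6 in Clone 2 and 9.90 in Clone 4, and at 39.95, 30.6 and 54.4 in the nilotinib, GNF-2 and vehicle populations. The clones and populations did not overlap for TTK, and the share of all genes with such an order was not counted. DNA replication genes were centred near 0 (median 0.02 over 19); the licensing factors ORC1 (-1.41) and CDT1 (-1.23) were lower and the S-phase cyclin CCNE2 higher (1.06).

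Of 24 glycolysis and hypoxia genes, 20 had a lower value in Clone 3 (median -0.37) and 6 were at least 2-fold lower. This list was not among the shifted lists either. HK2, the first enzyme of glycolysis, had 70.6 in Clone 3 and 293 in the imatinib population (-2.04), and ENO2 had 96.8 in Clone 3 and 329 in the imatinib population (-1.75). The hypoxia-induced ANKRD37 (-1.95), CA9 (-1.46), BNIP3 (-1.35) and PDK1 (-1.20), a kinase that inhibits pyruvate dehydrogenase, were lower as well. GAPDH, not called, had 9534 in Clone 3 and 9490 in the imatinib population. For HK2 the other clones had 58.0 to 108, the GNF-2 population, at 83.5, lay among them, and the vehicle population, at 282, lay beside the imatinib population.

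**Figure D3:**
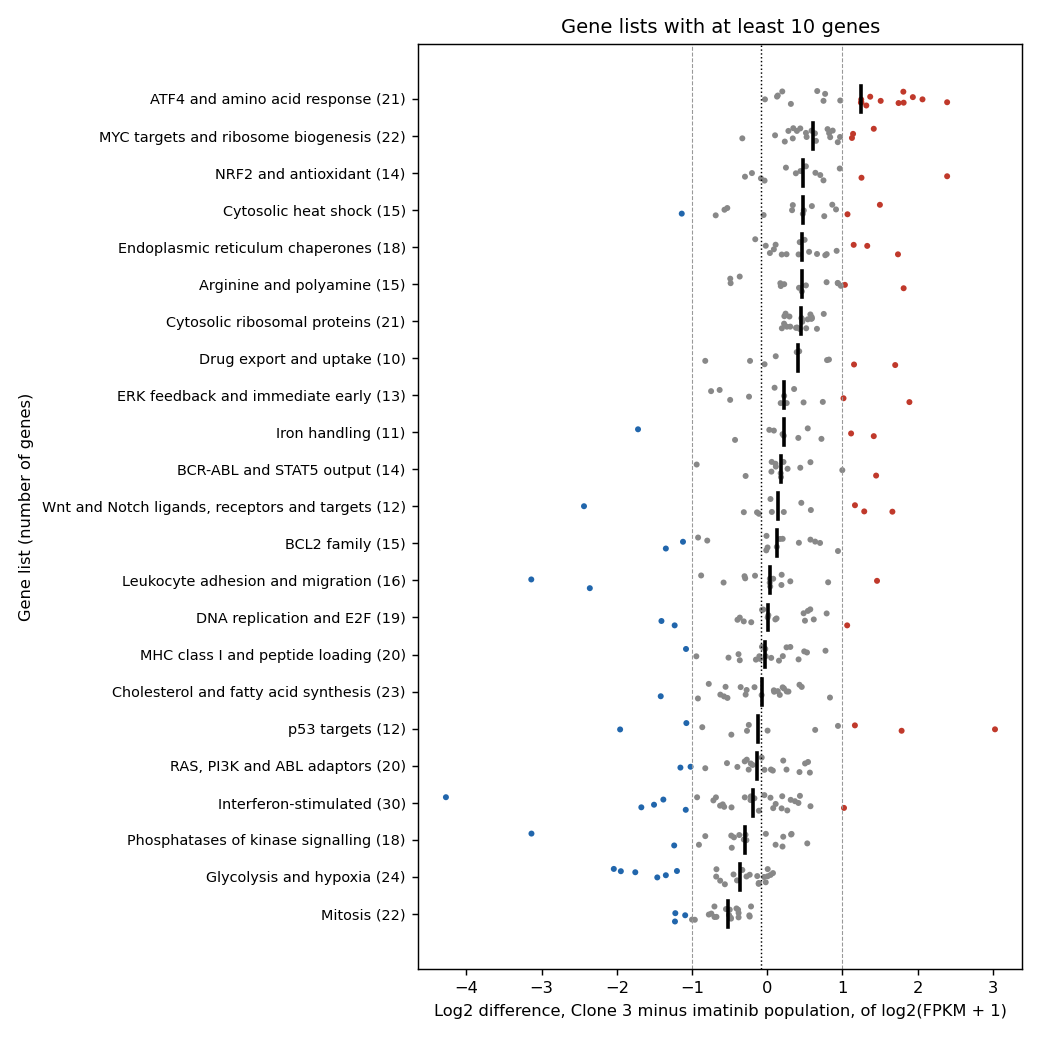
Log2 difference, Clone 3 minus imatinib population, of each gene (points) in the lists with at least 10 genes above the floor, sorted by the list median (black bars). Dashed lines mark 2-fold, the dotted line marks the median of all genes, and red and blue points are at least 2-fold higher and lower; the ATF4 list lies furthest to the right and mitosis furthest to the left.

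Lists of BCR-ABL signalling had medians less than 0.5 from that of all genes. Of all 9444 genes 11.1% were called and 43.7% had a higher value. The few calls below are named as single genes and are not results about their lists. In the BCR-ABL and STAT5 list 12 of 14 genes had a higher value. In the BCR-ABL and STAT5 list (14 genes, median 0.18) only ID1, an inhibitor of differentiation factors, was called, with 33.1 in Clone 3 and 11.5 in the imatinib population; SOCS1, a feedback inhibitor of JAK, had 121 in Clone 3 and 59.9 in the imatinib population, just under 2-fold, and the kinase PIM1 had 33.4 in Clone 3 and 64.8 in the imatinib population (-0.94). In the ERK feedback list (13 genes, median 0.23) the phosphatase DUSP6 was higher, with 44.7 in Clone 3 and 11.3 in the imatinib population (1.89), as was the transcription factor ETV4 (1.01). DUSP6 was between 1.26 and 19.7 in the other 6 libraries, all below Clone 3. Among 20 adaptors CRKL, a direct BCR-ABL substrate, had 54.1 in Clone 3 and 122 in the imatinib population (-1.15), and the ubiquitin ligase CBLB was lower too (-1.02). Of 18 phosphatases of kinase signalling PTPRU (-3.13) and PTPN6, the phosphatase SHP-1, were lower; PTPN6 had 10.3 in Clone 3, 25.6 in the imatinib population and 36.6 to 97.6 in the other 6 libraries. Of 8 SRC, SYK and TEC family kinases PTK2B (-1.33) and BTK (-1.13) were lower. None of 6 receptor tyrosine kinase and ligand genes was 2-fold apart.

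Survival and stress genes differed one by one, and over all genes 11.1% were called. TNFRSF10B, the TRAIL death receptor DR5, had 18.7 in Clone 3 and 1.42 in the imatinib population (3.03), and BTG2 (1.79) and the CDK inhibitor CDKN1A (48.3 in Clone 3, 21.0 in the imatinib population) were also higher, whereas DDB2 (-1.96) and SESN1 (-1.07) were lower; the 12 p53 targets had a median of -0.12. CDKN1A was at 55.6 in the vehicle population, above Clone 3. Of 15 BCL2 family genes BNIP3 and BCL2L2 (-1.12) were called, both lower. BCL2 itself had 10.8 in Clone 3 and 21.2 in the imatinib population (-0.92). Among 10 drug transport genes the nucleoside carrier SLC29A1 (60.9 in Clone 3, 26.8 in the imatinib population) and the carnitine family carrier SLC22A4 (9.19 in Clone 3, 2.13 in the imatinib population) were higher, and none was lower.

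Of 30 interferon-stimulated genes, 5 were at least 2-fold lower and 1 higher, with a median of -0.19. IFI27 had 18.0 in Clone 3 and 366 in the imatinib population (-4.27), and ranged over the other libraries from 2.22 in Clone 1 to 1957 in Clone 4, with 12.6 in the nilotinib population. IFI44 (-1.67), the RNA sensor IFIH1 (21.7 in Clone 3, 63.3 in the imatinib population), XAF1 (-1.38) and IRF9 (-1.08) were lower, and BST2, which tethers virus particles, was higher (1.02). Of 7 NF-kB and cytokine genes TNFAIP3, an inhibitor of the pathway, was lower (-1.91) and the adhesion molecule ICAM1 higher (1.46). MHC class I and peptide loading genes were centred at -0.02 over 20 genes, with PSMB9 lower (-1.08).

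Of the other lists, iron handling (11 genes, median 0.22) held TFRC and STEAP3 on the higher and SLC25A37, the mitochondrial iron importer, on the lower side (54.7 in Clone 3, 182 in the imatinib population). Of 12 Wnt and Notch genes HES1 (1.66), NRARP (1.29) and FZD6 (1.17) were higher and the Notch ligand DLL1 was lower, with 0.34 in Clone 3 and 6.27 in the imatinib population (-2.44). Of 16 adhesion and migration genes CDH2 (-3.14) and ITGB3 (-2.36) were lower, and ICAM1, named above, was higher. Of 23 cholesterol and fatty acid genes STARD4 was lower (-1.42), and the median was -0.07. No HOX or stem cell factor among 8 was called. Of 7 histone genes HIST1H1C (-1.06) and HIST2H2BE (-1.04) were lower and HIST1H2BK higher (1.15).

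The 15 largest increases among protein-coding genes above 0 in all 8 libraries had their highest value in Clone 3. Choosing genes by a high value in Clone 3 favours this order, so nothing is read from it. Over all genes with 8 values Clone 3 was highest at 8.52%. CYP1B1 (chromosome 2, 38294745 to 38303323, GRCh37), a cytochrome P450 induced through the aryl hydrocarbon receptor, had 330 in Clone 3, 14.2 in Clone 1, 0.02 in Clone 2 and 19.9 in Clone 4, against 42.0 in the imatinib population and 21.9 to 56.8 in the other 3 populations. PRNP, the prion protein (chromosome 20, 4666796 to 4682234), had 117 in Clone 3 and 9.56 in the imatinib population (3.48), and 18.3 to 44.9 in the other 6 libraries. The cytokine IL32 (chromosome 16, 3115312 to 3119668) had 739 in Clone 3 and 129 in the imatinib population (2.51). The membrane peptidase ECEL1 had 195 in Clone 3 and 21.9 in the imatinib population (3.10), and FAM83A had 28.6 in Clone 3 and 1.04 in the imatinib population (3.86). Receptors with higher values were the complement receptor C5AR1 (17.1 in Clone 3, 0.37 in the imatinib population), the protein C receptor PROCR (56.5 in Clone 3, 7.68 in the imatinib population), the endotoxin co-receptor CD14 (34.6 in Clone 3, 4.13 in the imatinib population), CD4 (40.4 in Clone 3, 5.84 in the imatinib population) and CD30, encoded by TNFRSF8 (30.7 in Clone 3, 7.43 in the imatinib population). The integrin chain ITGA3 (2.74), the costimulatory ligand ICOSLG (2.85), the kinase RPS6KA2 (2.57) and the neural transcription factor NEUROG2 (3.00) were higher too. C14orf119 (chromosome 14, 23564682 to 23569665) had 83.0 in Clone 3 and 13.8 to 19.0 in the other 7 libraries.

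On the lower side several genes were near 0 in Clone 3. The LIM scaffold FHL2 had 0.18 in Clone 3 and 22.7 in the imatinib population, the complement regulator SUSD4 0.17 in Clone 3 and 20.8 in the imatinib population, and the transcription factor ZBTB16 (PLZF) 0.03 in Clone 3 and 14.5 in the imatinib population. The Wnt receptor FZD3 had 0.02 in Clone 3 and 13.9 in the imatinib population, and the retinal reductase DHRS3 0.23 in Clone 3 and 11.4 in the imatinib population. Some were low in other clones as well and some in Clone 3 alone: SUSD4 was at 0.24 in Clone 1 and 6.35 in Clone 4, whereas CD7, a T-lineage antigen seen on leukemic blasts, had 2.16 in Clone 3, 27.3 in the imatinib population and 28.6 to 112 in the other 6 libraries. C19orf77 had 3.05 in Clone 3, 41.4 in the imatinib population and 26.3 to 70.1 in the other 6 libraries. The inhibitory receptor CD300A had 2.97 in Clone 3 and 18.3 in the imatinib population, and the Wnt regulator DACT3 had 2.69 in Clone 3 and 21.0 in the imatinib population. YWHAE, the 14-3-3 epsilon protein (chromosome 17, 1247833 to 1303556), had 39.8 in Clone 3, 189 in the imatinib population and 180.1 to 219 in the other 6 libraries, a narrow range from which only Clone 3 departed. TRIM72 had 0.77 in Clone 3 and 7.86 in the imatinib population. Further large decreases were A2M (-3.73), GOLGA8A (-3.68), CLEC1B (-3.55), FGFBP2 (-3.54) and TPM2 (-3.28). GOLGA8A is nearly identical to GOLGA8B, so its reads may be split between them. GOLGA8B was lower as well, with 3.85 in Clone 3 and 32.3 in the imatinib population (-2.78).

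Genes listed at 0 need care. IGFBP7, a secreted growth factor binding protein (chromosome 4, 57897236 to 57976551), was listed at 0 in Clone 3, with 58.2 in the imatinib population and 47.3 to 558 in the other 6 libraries. KLC4 was listed at 0 in Clone 3 and had 14.7 in the imatinib population. ROMO1, DDT and MIR4754 were listed at 0 in Clone 3 with 134, 121 and 225 in the imatinib population, but each was also listed at 0 in at least 3 of the other 6 libraries. AIMP2 and PUSL1 were listed at 0 in the imatinib population and had 24.2 and 23.2 in Clone 3, and both were at 0 in the vehicle population as well. SNORD116-2, a small nucleolar RNA gene, was at 272 in Clone 3 and at 0 in the other 7 libraries. Whether these zeros are absence of RNA was not tested.

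**Figure D4:**
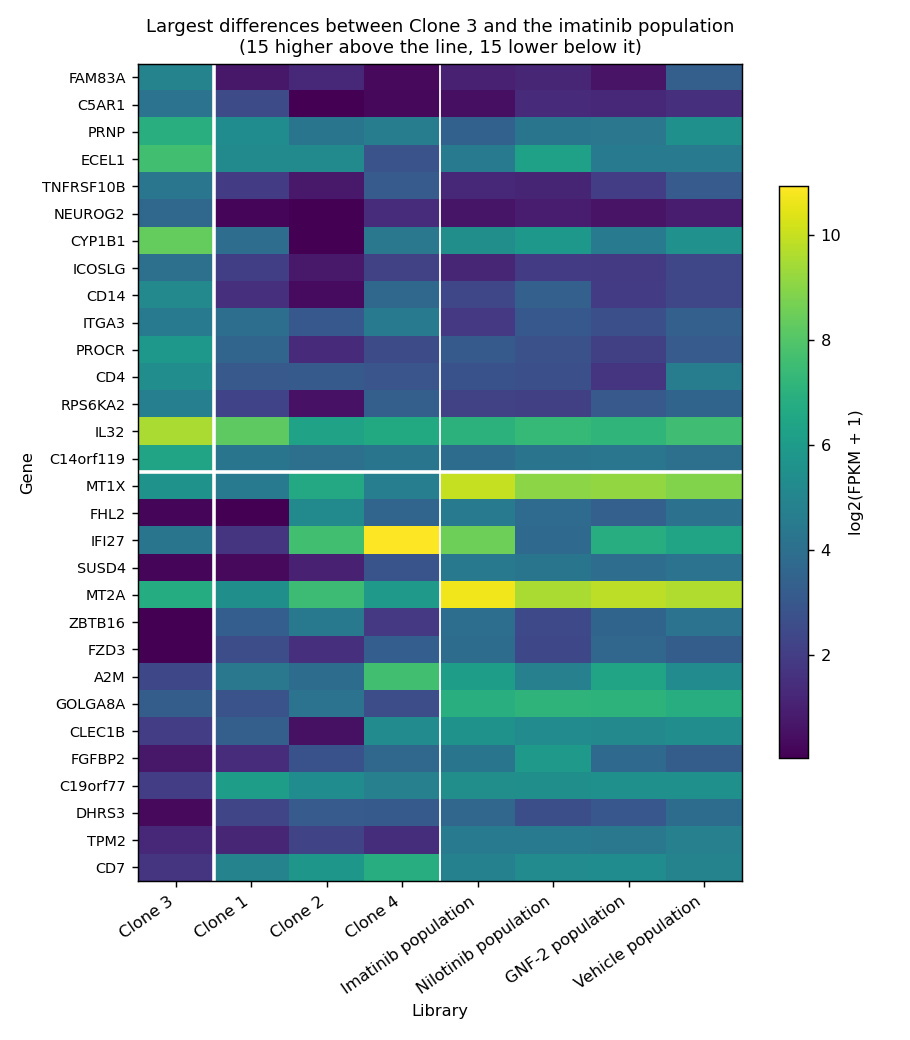
Level, as log2(FPKM + 1), of the 15 genes with the largest increase (above the white line) and the 15 with the largest decrease (below it) among protein-coding genes above 0 in all 8 libraries; columns are libraries, with Clone 3 first. The 15 increased genes are highest in Clone 3, an order that their choice favours, while MT1X, MT2A, GOLGA8A and TPM2 are low in all 4 clones.

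The other 6 libraries were then read at the called genes, whose choice used Clone 3 and the imatinib population. For each gene a library was put on the side of Clone 3 or of the imatinib population by the midpoint of the pair on the log2 scale. At the 676 lower genes with values in all libraries, Clone 1 lay on the side of Clone 3 at 552 (81.7%), Clone 4 at 505 (74.7%) and Clone 2 at 459 (67.9%), the GNF-2 population at 157 (23.2%), the nilotinib population at 104 (15.4%) and the vehicle population at 72 (10.7%). At the 370 higher genes the shares were 67.3% in Clone 4, 63.2% in Clone 1, 48.4% in Clone 2, 41.1% under GNF-2, 29.7% under nilotinib and 23.2% under vehicle. All 3 other clones sided with Clone 3 and all 3 other populations with the imatinib population at 225 lower (33.3%) and 35 higher genes (9.46%). The share of all genes that separate the clones from the populations was not counted. Clone 3 lay outside the range of the other 7 libraries at 166 of the 370 higher genes (44.9%; 8.52% of all genes with 8 values had Clone 3 highest) and at 240 of the 676 lower genes (35.5%; 14.6% had Clone 3 lowest). The imatinib population was the lowest library at 125 of the higher genes (7.62% of all) and the highest at 238 of the lower genes (13.1% of all). The called genes were chosen for the distance between these 2 libraries. That choice raises the shares at the ends of the range and can by itself move the shares on the side of Clone 3. The side shares over all genes were not counted, and nothing is read from either kind of share.

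**Figure D5:**
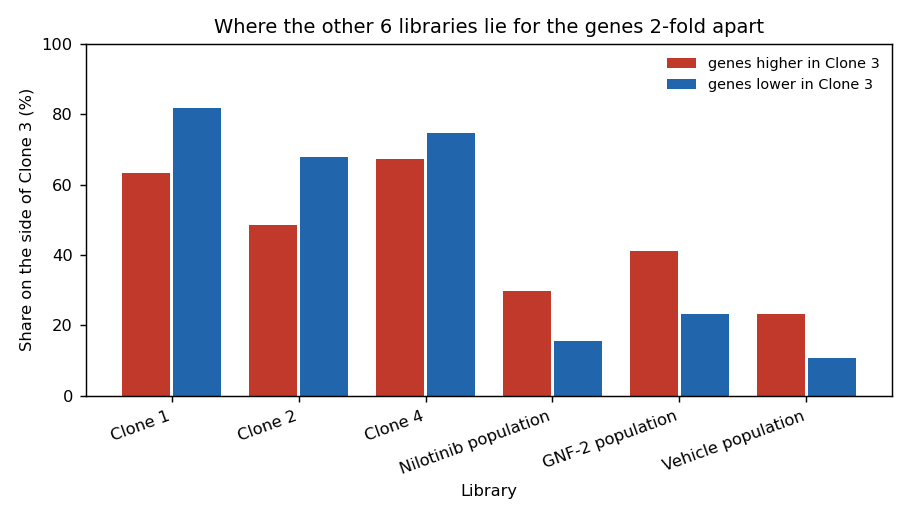
Share of the 370 genes higher (red) and the 676 genes lower (blue) in Clone 3 at which each of the other 6 libraries lay nearer Clone 3 than the imatinib population on the log2 scale. The bars of the 3 other clones exceed those of the 3 populations in both directions, by more among the lower genes. The genes were chosen by Clone 3 and the imatinib population, and the shares over all genes were not counted.

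The other clones were also compared with their own origin by the same rule, with no library shared with the pair of Clone 3; those 3 comparisons share the GNF-2 population. Clone 1 was at least 2-fold lower than the GNF-2 population at 805 genes (8.35%), and 306 were lower in both comparisons, 45.1% of the Clone 3 list and 38.01% of the Clone 1 list. For Clone 2 the shared number was 231 (34.1% of the Clone 3 list, 29.7% of the other) and for Clone 4 it was 273 (40.3% and 35.4%). Of the higher genes 57 were shared with Clone 1 (15.4% of the Clone 3 list), 42 with Clone 2 (11.4%) and 81 with Clone 4 (21.9%). The background shares of higher genes were 2.05% for Clone 1, 4.07% for Clone 2 and 3.63% for Clone 4, and of lower genes 7.9% for Clone 2 and 7.93% for Clone 4. With such unlike backgrounds the sharing of higher and of lower genes is not ranked. With Clone 2, 54 higher genes of Clone 3 (14.6%) went the opposite way, beside 7.9% of all genes called lower in Clone 2. The same way went 42 (11.4%), beside 4.07% called higher, so the 2 counts have unlike backgrounds.

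Along the chromosomes the differences were spread widely. Chromosome 15 had the lowest median (-0.24 over 312 genes, 11.9% of them at least 2-fold lower) and chromosome 8 the highest (-0.00 over 346). Among 8812 runs of 25 neighbouring genes the lowest median, -0.65, lay on chromosome 6 (24804512 to 29600962, GRCh37), which holds histone, butyrophilin and zinc finger genes. The run next in order lay on chromosome 8 (23145611 to 28920183, -0.60). The highest median, 0.46, lay on chromosome 19 (48898131 to 50046890). In the chromosome 6 run the medians against the imatinib population were -0.56 in Clone 1, -0.29 in Clone 2 and -0.54 in Clone 4, and in the chromosome 19 run 0.20 in Clone 1, -0.04 in Clone 2 and 0.06 in Clone 4. As the extremes of many overlapping runs these medians are a description.

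Gene length and base composition moved with the differences. Split into 4 equal groups by the longest transcript, the median difference was 0.03 in the group of the shortest and -0.17 in the group of the longest transcripts. Split likewise by GC content, it was -0.16 in the lowest and 0.02 in the highest group. The share of genes at least 2-fold higher was 1.56% in the lowest and 6.92% in the highest GC group, against 6.10% and 7.57% for genes at least 2-fold lower. The part of these properties in the results above was not tested.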

How the data were processed

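RNA of 8 KCL-22 libraries was isolated on RNeasy Plus Mini columns and sequenced by standard Illumina protocols, per the labels' protocols. TopHat 1.3, Cufflinks 1.3 and the build GRCh37 were used, per the submitters' processing notes. The deposited values are FPKM made by the authors, 1 per gene and library; the header names no unit, which was taken from the tools and the values. Counts were not used here. The 27 entries without a value in either library of the pair, MYB among them, were left out.

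Differences are of log2(FPKM + 1), and a gene was called at 2-fold. Genes to name were the 15 largest differences each way above 0 in all libraries, 5 each way listed at 0, up to 4 called genes of each list, the 8 each way furthest outside the other 7 libraries, ABL1, BCR and the genes at the floor. Other genes in the text were picked with their values known. A list was read as shifted where its median differed by 0.5 from that of all genes. The genes compared and the 38 lists were chosen with earlier results of these data known. The code that makes the calls was tested on simulated data, which says nothing on the spread between cultures. Depth and length used GENCODE 29, and promoters came from RefSeq. Python 3.11.15, numpy 2.4.6, pandas 2.3.3 and matplotlib 3.10.9 were used.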

Additional observations from a re-analysis of the deposited data

Results flagged for a closer look

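A few genes moved one way between Clone 3 and the imatinib population and the opposite way, by at least 1 on the log2(FPKM + 1) scale, in each of Clones 1, 2 and 4 against the GNF-2 population. They were chosen after their values were seen, the difference between the comparisons was not tested, and the other 3 comparisons share the GNF-2 library. SLC22A16, a carrier of carnitine and organic cations, had a log2 difference of 1.24 in Clone 3 against -2.83 in Clone 1, -2.39 in Clone 2 and -2.48 in Clone 4; it had an FPKM of 14.4 in Clone 3 and 5.50 in the imatinib population. PLAC8, a small cysteine-rich protein, had 1.16 in Clone 3 against -1.70, -1.14 and -2.30 in Clones 1, 2 and 4. BASP1, a membrane-bound signalling protein, had 2.09 in Clone 3 against -2.21 in Clone 1 and -1.96 in Clone 4. Its FPKM was 49.97 in Clone 3 and 10.9 in the imatinib population, and it was listed at 0 in Clone 2 with 4.79 in the GNF-2 population, under the floor of 5. The transcript uc001yuj had 1.41 in Clone 3, at low levels (5.54 in Clone 3, 1.47 in the imatinib population). It was listed at 0 in Clones 1 and 2 and had 0.16 in Clone 4, against 1.51 in the GNF-2 population, under the floor, so no fold is given there. SNORA24, a small nucleolar RNA, had -3.76 on this scale, but it was listed at 0 in Clone 3 and in the GNF-2 population, so this is no fold. Its FPKM was 31.5, 16.9 and 17.0 in Clones 1, 2 and 4 and 12.6 in the imatinib population.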

How the results depend on the processing

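No paired analysis was possible because each group has 1 library. The counts of 370 higher and 678 lower genes became 188 and 362 with a pseudocount of 5, 1074 and 1805 at 1.5-fold, and 112 and 248 at 3-fold. With the nilotinib population in place of the imatinib population 220 genes were higher, 169 of them among the 370, and 678 lower, 381 of them among the 678. The other planned settings kept both counts within 1.5 times: pseudocount 0.1, no floor, a floor of 10, median-ratio rescaling, quantile normalization, genes above 0 in all libraries and protein-coding genes. So did leaving out genes at 0 in the pair and using the vehicle population (447 and 814), both added after seeing the data. Against the nilotinib population the log2 difference changed sign for IFI27 (0.49), ID1 (-0.57), CHAC1 (-0.12) and CD79A (-0.93), and against the vehicle population for ICAM1 (-0.58) and CDKN1A (-0.20); the cause was not tested. Of 116 named genes 22 were no longer 2-fold apart with a pseudocount of 5. Against the nilotinib population 36 kept their direction but were no longer 2-fold apart, beside the 4 that changed sign. The shifted lists depended on the settings more than the counts did. With no floor 7 of the 9 lost their shift. Against the nilotinib population 7 lost it and 1 other list gained it, and against the vehicle population 3 lost and 5 gained it. After quantile normalization 2 lost and 2 gained it. In the other settings no more than 1 list changed either way. The rough depths limit the precision of genes near the floor, and 1 library a side gives no measure of the spread between cultures.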

Other observations

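At 13 genes Clone 3 against the imatinib population and all 3 other clones against the GNF-2 population were at least 2-fold higher, and at 152 all 4 were at least 2-fold lower. In the single comparisons 2.05% to 4.07% of genes were called higher and 7.18% to 8.35% lower. TFRC and HSPA8, named above, were among the 13. The examples here were chosen after their values were seen. On the higher side, S100A4, a calcium-binding protein linked to cell motility, had an FPKM of 754 in Clone 3 and 1294 to 1392 in the other clones, against 220 in the imatinib population and 286 in the GNF-2 population, but the nilotinib population was at 520.2. The RNA helicase DHX9 had 68.4 in Clone 3 and 78.2 to 86.5 in the other clones, against 31.1 in the imatinib population and 30.4 to 37.9 in the other populations.

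On the lower side, TXNIP, an inhibitor of thioredoxin and of glucose uptake, had 27.1 in Clone 3 and 36.2 to 52.8 in the other clones, against 164 in the imatinib population and 136 to 359 in the other populations. The nuclear RNA NEAT1 had 5.27 in Clone 3 and 3.72 to 7.38 in the other clones, against 23.6 in the imatinib population and 22.9 to 30.5 in the other populations. OGT, which attaches N-acetylglucosamine to proteins, had 61.5 in Clone 3 and 57.2 to 76.9 in the other clones, against 173 in the imatinib population and 158 to 270.4 in the other populations. LENG8, CCNL2, a cyclin that acts in splicing, and ARGLU1 showed the same order: ARGLU1 had 39.8 in Clone 3, against 133 in the imatinib population. For TXNIP, NEAT1, OGT and ARGLU1 the 4 clones lay below the 4 populations with no overlap. How common such an order is over all genes was not counted. The sources used here do not say whether clones and populations were prepared together, and its part in these differences was not tested.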
